A study of Mus musculus with 2 samples.

Results

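The genes that move zinc and iron across membranes, bind these metals or sense them were examined in sorted mouse alveolar macrophages, which live in the airspaces of the lung. The set was defined by gene name, not by expression. It comprised every Slc30a and Slc39a gene with a row of its own in the deposited table, the metallothionein genes, the zinc sensor Mtf1, and genes of iron uptake, storage, export and regulation. Of 38 genes so defined, 37 were measured, each by 1 row, among 22180 genes with rows that carry a single gene symbol. No row carried Ftl1, the ferritin light chain gene, alone, and Slc30a1 and Slc30a10 were likewise present only on rows that list a further symbol, so no value is given for these.

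The knockout sample came from adult C57BL6 mice whose Pikfyve alleles are floxed and which carry LysM-Cre, which expresses the recombinase in myeloid cells under the Lyz2 promoter. The wild type sample came from littermates with the floxed alleles and no Cre, per the labels. Both were live cells sorted for Siglec-F and CD11c from collagenase-digested lung, and 10 ng of total RNA from each was amplified for 1 Affymetrix array. With 1 array per genotype no difference was tested and no value has a replicate error, and the number of mice behind each RNA is not stated. Pikfyve itself read 5.95 on the array labelled knockout and 5.68 on the array labelled wild type, so the row does not show the deletion, and the position of its probes in the gene is not known here.

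Zinc enters the cytosol through the ZIP family of importers, encoded by Slc39a genes, and leaves it through the ZnT family, encoded by Slc30a genes, which export it or load it into organelles. Metallothioneins are small cysteine-rich proteins that buffer zinc and copper, and their genes are induced when free zinc activates the transcription factor MTF1. Macrophages of the lung and other tissues also take up, store and recycle iron. PIKfyve makes the lipid phosphatidylinositol 3,5-bisphosphate on endosomes and lysosomes, which opens the lysosomal channel TRPML1, a pore known to pass iron and zinc.

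Values are log2 signals, and differences are the array labelled knockout minus the array labelled wild type. Genes were compared when their mean signal over the arrays was at least 5.13, the median row, which kept 12516 genes and 30 of the 37 measured genes of the set. The 95th percentile of 1428 olfactory, vomeronasal and taste receptor genes, which macrophages mostly do not express, was taken as the background level and lay at 5.31 on the array labelled knockout and 5.37 on the array labelled wild type. The local spread, a scaled median absolute deviation of all differences at a similar signal, gives the scatter. It ranged from 0.20 to 0.33 and holds noise and real differences alike. All 11 measured alveolar macrophage markers of 13 listed lay above background on both arrays.

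One gene of the set, the zinc importer gene Slc39a2, was higher by more than 1.5-fold in the array labelled knockout, and none was lower by that much. That is 1 of the 30 genes that passed, where 4.45% of all genes that passed were at least 1.5-fold higher, and 0 of 30 where 2.66% were at least 1.5-fold lower. Of the 30 genes, 14 read higher and 16 lower, and their median difference was -0.03, beside 0.00 for all genes that passed. For 21 of the 30 (70.0%) the difference was smaller than 1 local spread, a share close to the 65.4% of all genes. The shares called are therefore near those of the whole array, and the set is described below by its single members.

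**Figure D1:**
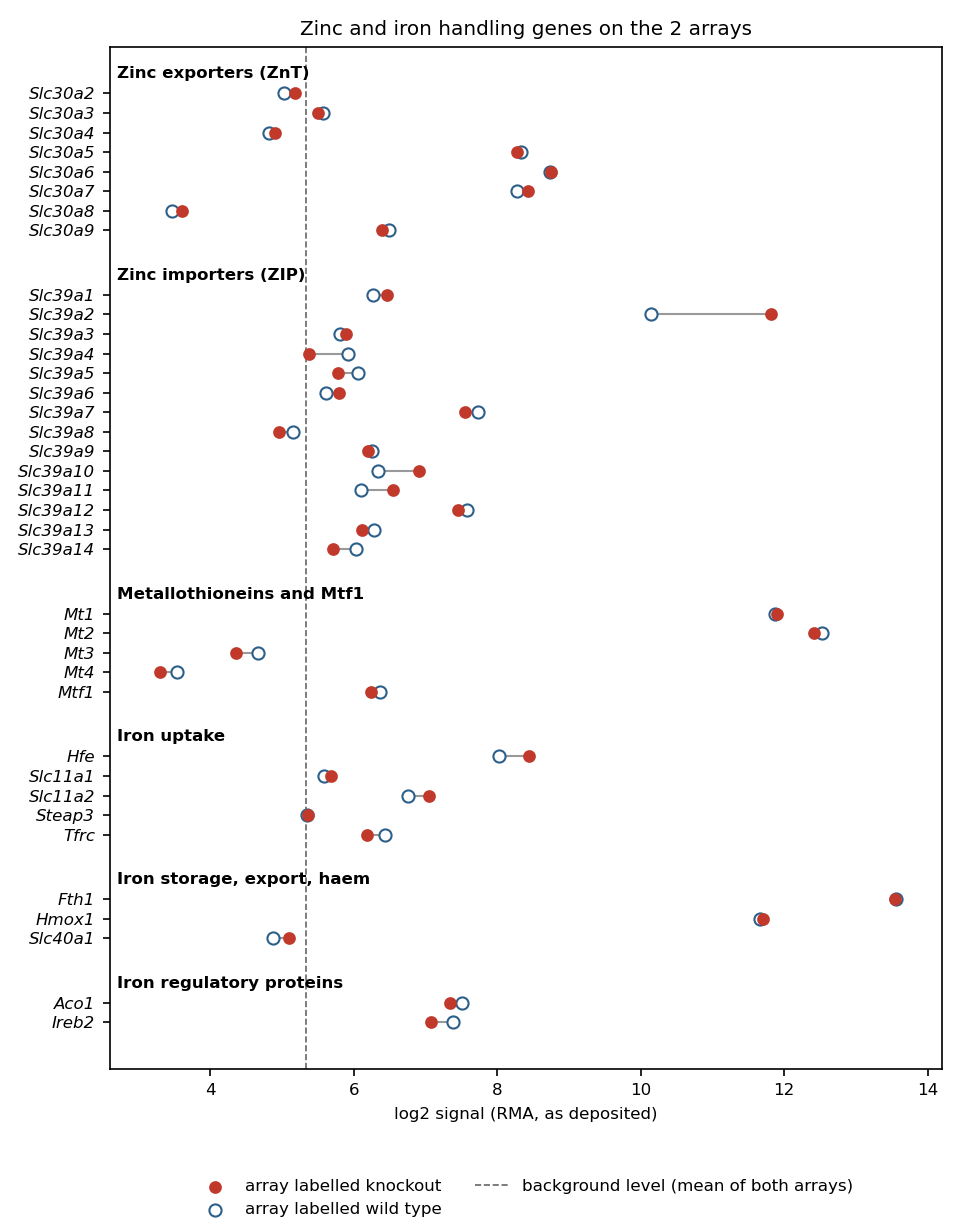
Log2 signal (horizontal axis) of the 37 measured zinc and iron handling genes by role, with filled points for the array labelled knockout, open points for the array labelled wild type and the background level dashed. The points of nearly all genes lie close together, while those of Slc39a2 stand apart at 11.82 on the array labelled knockout and 10.15 on the array labelled wild type.

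Slc39a2, which encodes the plasma membrane zinc importer ZIP2, read 11.82 on the array labelled knockout and 10.15 on the array labelled wild type, well above background on both. The difference of 1.67 is a 3.18-fold higher signal, or 8.23 local spreads, and it ranked 33rd from the top among the 12516 genes. That spread, 0.20, is the smallest of the bins. Its bin is wide, from Slc39a2 at a mean of 10.98 to Fth1 at 13.55, so it is not the scatter at this signal alone. Of all genes, 0.927% reached 2-fold in this direction and 0.336% in the other, and of the 30 genes this was the only one past 2-fold either way. The probe row is assigned to Slc39a2 alone.

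Some markers of other cells also differed between the arrays, and fewer cells of a type and less RNA per cell cannot be told apart in such bulk samples. Of all genes that passed, 48.9% read higher and 49.6% lower. At least 1.5-fold higher were 4.45%, and at least 1.5-fold lower 2.66%. The marker counts are to be read beside these shares. Interstitial macrophage markers were higher for 9 of 10 measured genes, with a summed linear signal of 1821 on the array labelled knockout and 1067 on the array labelled wild type. Of these markers, 5 were at least 1.5-fold higher, led by Ms4a7 (2.38-fold), and none was lower by that much. C1qc and Lyve1 lay below background on the array labelled wild type. Monocyte markers were lower for all 5 that passed of 7 measured (704 summed on the array labelled knockout and 1290 on the array labelled wild type, with Vcan and F13a1 below background on both arrays). Of the 5, 4 were at least 1.5-fold lower, led by Fn1 (2.90-fold). Neutrophil markers were higher for 10 of 14 (9977 labelled knockout, 7294 labelled wild type), sums carried mostly by S100a8 and S100a9. Of the neutrophil markers past 1.5-fold, 5 were higher and 1, Csf3r (1.56-fold), was lower. Epithelial markers were higher for 8 of the 15 that passed (12221 labelled knockout, 10695 labelled wild type, with Sftpb, Sftpd and Foxj1 below background on both arrays). Within that list Bpifa1 was 5.53-fold and Scgb3a1 2.77-fold higher, while Epcam was 3.98-fold lower. Lymphocyte markers were higher for 4 of 7 (1017 labelled knockout, 693 labelled wild type, Ncr1 below background). In direction the epithelial and lymphocyte counts were near the share of all genes. Past 1.5-fold, 5 epithelial markers were higher and 2 lower, and 2 lymphocyte markers were higher and none lower. Alveolar macrophage markers themselves were higher for 7 of 11 (44258 labelled knockout, 42793 labelled wild type), but of those past 1.5-fold 1 was higher and 2 were lower. The lower ones were Krt79 (1.97-fold) and Siglecf (1.66-fold), whose product was used for sorting. Endothelial and fibroblast markers lay above background for 2 of 5 and 1 of 5 genes on both arrays. The part of these cells in the signal of Slc39a2 was not tested.

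The other importers of the plasma membrane read closer together on the arrays. Slc39a10, which encodes the importer ZIP10, read 6.91 on the array labelled knockout and 6.33 on the array labelled wild type, a difference of 0.58 that falls just short of 1.5-fold (1.49-fold) and equals 2.09 local spreads. It passed 1.5-fold with the arrays median-centred (0.64), quantile-normalised (0.60) or loess-centred (0.59). Slc39a6, which encodes its close relative ZIP6, read 5.79 (labelled knockout) and 5.61 (labelled wild type), not far above background. Slc39a1 and Slc39a3, which encode importers of the same subfamily as ZIP2, differed by 0.20 and 0.08, both less than 1 local spread. They read 6.46 and 5.89 on the array labelled knockout, against 6.26 and 5.81 on the array labelled wild type.

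Slc39a4, Slc39a5 and Slc39a14 read lower. Slc39a4, which encodes the intestinal zinc importer ZIP4, had the most negative difference of the set, -0.55, with 5.37 on the array labelled knockout and 5.93 on the array labelled wild type. The knockout value is close to the background level, so this 1.47-fold lower signal is measured from near the floor of the array. Slc39a5, which encodes an importer of gut and pancreas, differed by -0.28, with 5.78 (labelled knockout) and 6.06 (labelled wild type), and Slc39a14, whose product ZIP14 carries both zinc and non-transferrin iron, by -0.32, with 5.71 (labelled knockout) and 6.03 (labelled wild type). The knockout values of Slc39a5 and Slc39a14 were also not far above background. Slc39a8, which encodes the zinc and manganese importer ZIP8, lay below background on both arrays, at 4.96 (labelled knockout) and 5.15 (labelled wild type).

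The remaining ZIP genes were divided. Slc39a11 read 6.54 on the array labelled knockout and 6.11 on the array labelled wild type, a difference of 0.44 or 1.60 local spreads. Slc39a7, which encodes the channel that releases zinc from the endoplasmic reticulum, read 7.55 (labelled knockout) and 7.73 (labelled wild type). Slc39a9 differed by -0.06, Slc39a13 by -0.17 and Slc39a12, best known from brain, by -0.14, all within 1 local spread. Across the 13 importer genes that passed, 6 read higher and 7 lower, with a median of -0.06 and a range of -0.55 to 1.67.

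The zinc exporter genes differed little. Slc30a5 and Slc30a6, whose products pair to load zinc into the early secretory pathway, read 8.27 and 8.75 on the array labelled knockout and 8.34 and 8.73 on the array labelled wild type. Slc30a7, which serves the same compartment, read 8.43 (labelled knockout) and 8.28 (labelled wild type), and Slc30a9, whose product exports zinc from mitochondria, read 6.39 (labelled knockout) and 6.49 (labelled wild type). Slc30a3, known from synaptic vesicles, read 5.50 (labelled knockout) and 5.57 (labelled wild type), just above background. The 5 differences lay between -0.10 and 0.15, each under 1 local spread. The vesicular exporter genes Slc30a2, Slc30a4 and Slc30a8 lay below background on both arrays, with differences between 0.08 and 0.15 that are not interpreted.

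**Figure D2:**
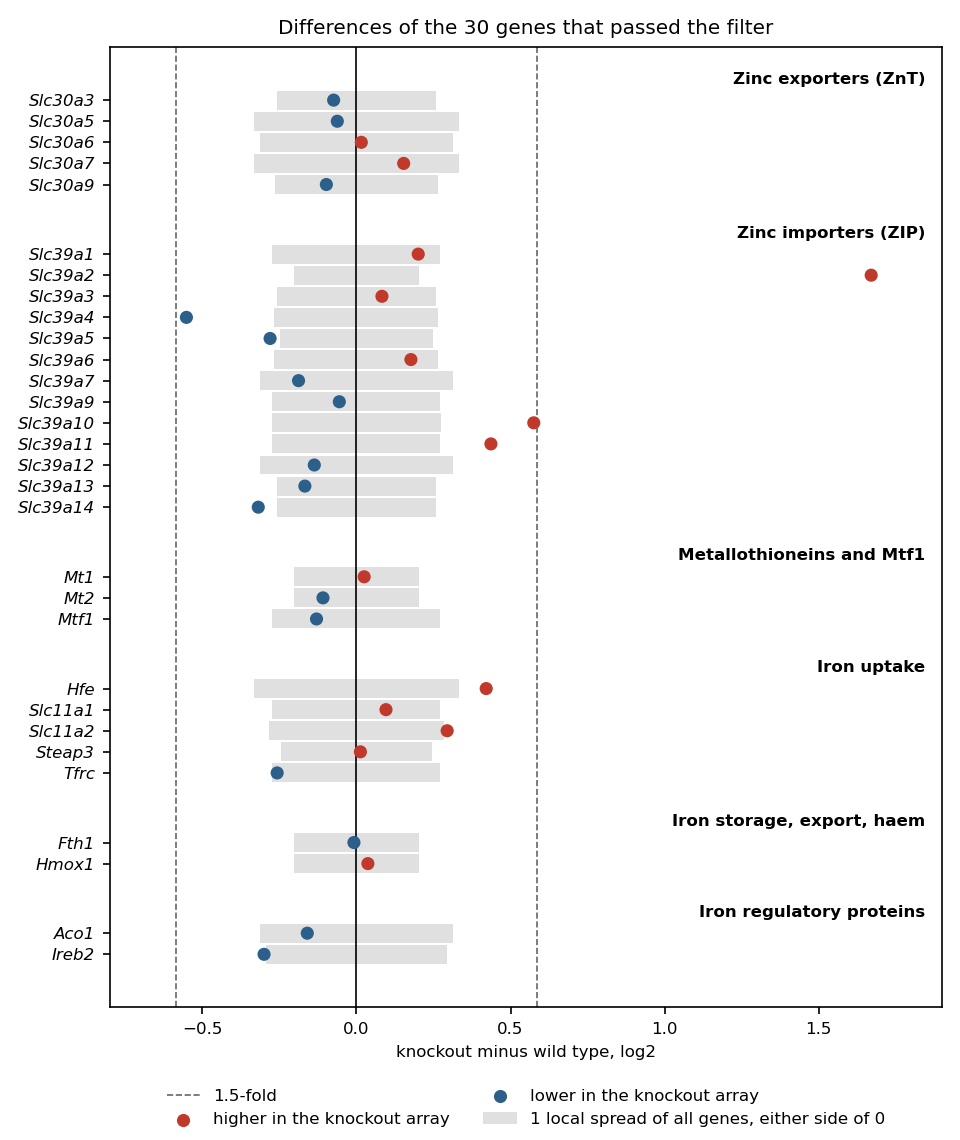
Difference of each of the 30 genes that passed the filter, knockout minus wild type in log2 units (horizontal axis), with red points above 0 and blue points below it, 1 local spread of all genes in grey and 1.5-fold dashed. Slc39a2 lies at 1.67, Slc39a10 at 0.58 just inside the line, and Slc39a4 at -0.55.

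The metallothionein genes, the usual transcriptional readout of free cytosolic zinc, read nearly alike on both arrays as deposited. Mt1 read 11.90 on the array labelled knockout and 11.87 on the array labelled wild type, and Mt2 read 12.41 (labelled knockout) and 12.52 (labelled wild type). Their differences were 0.03 and -0.11, each below the local spread of 0.20, which is that of the wide bin of Slc39a2. With the arrays loess-centred the differences were -0.11 for Mt1 and -0.24 for Mt2, so that of Mt2 then passed this spread. Scanner values were not used here. Mtf1, which encodes the zinc sensor, read 6.24 (labelled knockout) and 6.37 (labelled wild type). Mt3, of brain, and Mt4, of stratified epithelium, lay below background on both arrays.

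MTF1 binds short metal response elements, whose core was searched as TGCACNC and TGCGCNC on both strands in the 250 bases before each gene start of the RefSeq promoter table (GRCm38.p6). The windows of Slc39a2 and Mt2 are shown because one gene had the largest difference of the set while the other, an MTF1 target, read nearly alike on both arrays. Capitals mark matches to the core, and both windows are given 5′ to 3′ on the plus strand, at chr14:51893360-51893609 for Slc39a2 and chr8:94172368-94172617 for Mt2.
Slc39a2: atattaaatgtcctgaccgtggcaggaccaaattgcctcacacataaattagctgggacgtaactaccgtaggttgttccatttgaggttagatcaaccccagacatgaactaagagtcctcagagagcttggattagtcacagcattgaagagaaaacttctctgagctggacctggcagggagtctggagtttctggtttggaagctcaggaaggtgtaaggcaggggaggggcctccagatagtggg
Mt2: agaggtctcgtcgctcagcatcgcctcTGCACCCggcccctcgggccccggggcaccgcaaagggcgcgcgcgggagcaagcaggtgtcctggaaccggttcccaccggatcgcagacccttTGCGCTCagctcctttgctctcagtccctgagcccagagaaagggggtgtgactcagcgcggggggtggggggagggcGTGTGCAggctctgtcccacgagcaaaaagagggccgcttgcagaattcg
Mt2 held 3 matches, at 223 to 217, 128 to 122 and 50 to 44 bases before the start, of which 2 were on the strand of the gene and none overlapped another. Only 1.26% of the 32851 promoter windows held 3 or more, and 21.4% held at least 1. The Slc39a2 window held 0, which says only that these letters are not in this window. The start used for Slc39a2 lies 528 bases inside the outer boundary of the annotated gene, so other annotated starts were not searched.

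The table held windows for 30 of the 37 measured genes. It held none for Slc30a8, Slc39a4, Slc39a6, Slc39a14, Slc11a2, Slc40a1 and Hmox1. Of the 30, 12 (40%) had at least 1 match in any of their windows, against 23.8% of the 27025 genes in the table. The 12 include Slc30a2, Slc30a4, Slc39a8 and Mt4, which lay below background on both arrays. Genes with more windows had more bases searched, and the difference between these shares was not tested. Mt1 had 1 match before its listed start, and 3 when the 50 bases after it were included. That start lies 206 bases inside the outer gene boundary, so the window may not cover the elements of the start in use. Slc39a10, the importer gene with the next largest positive difference, held 0 in both of its windows, and Slc39a11 held 1 in each of 2. A match is a sequence description and was not tested as a binding site.

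None of the 9 iron genes that passed reached 1.5-fold either way. Of these, 5 read higher and 4 lower, with a median of 0.01 and a range from -0.30 to 0.42. Fth1, the ferritin heavy chain gene that stores iron, read 13.55 on the array labelled knockout and 13.56 on the array labelled wild type. These lie close to the largest signals of any row, 13.78 (labelled knockout) and 13.86 (labelled wild type), so the row says little about a difference. Hmox1, the haem oxygenase gene that frees iron from haem, read 11.70 (labelled knockout) and 11.67 (labelled wild type). Slc40a1, which encodes ferroportin, the only known iron exporter of mammalian cells, lay below background on both arrays at 5.10 (labelled knockout) and 4.87 (labelled wild type), so its export step could not be compared.

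Genes of iron uptake differed in direction. Tfrc, the transferrin receptor gene, read 6.18 on the array labelled knockout and 6.44 on the array labelled wild type. Slc11a2, which encodes DMT1, the carrier that moves iron out of endosomes, read 7.05 (labelled knockout) and 6.75 (labelled wild type), and Hfe, whose product binds the transferrin receptor, read 8.45 (labelled knockout) and 8.03 (labelled wild type). The Hfe difference of 0.42, or 1.27 local spreads, was the largest among the iron genes. Steap3, the endosomal ferrireductase gene, read 5.37 (labelled knockout) and 5.35 (labelled wild type) and straddled background, and Slc11a1, which encodes the phagosomal metal pump NRAMP1, read 5.69 (labelled knockout) and 5.59 (labelled wild type).

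Both iron regulatory protein genes read lower. Aco1, which encodes IRP1, read 7.34 on the array labelled knockout and 7.50 on the array labelled wild type, and Ireb2, which encodes IRP2, read 7.08 (labelled knockout) and 7.38 (labelled wild type). These proteins bind ferritin and transferrin receptor messages when iron is scarce. Their differences were -0.16 and -0.30, or 0.51 and 1.02 local spreads in size. Red cell markers, which would carry iron genes of their own, were near background: of 4 measured of 14 listed, Slc4a1 alone lay above it, at 5.49 (labelled knockout) and 5.81 (labelled wild type), and Epb42, Klf1 and Sptb lay below it on both arrays.

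Slc39a10, Slc40a1, Slc11a1 and Steap3 lie on chromosome 1 with Pikfyve. Between Pikfyve and Slc11a1 lie 48 measured genes in the RefSeq order, and 114 lie between Pikfyve and Slc39a10. Per the labels, both samples carry the floxed Pikfyve alleles, and only the knockout sample carries LysM-Cre. Slc39a3 and Slc39a5 lie on chromosome 10 with Lyz2, whose promoter drives the recombinase. Their differences were 0.08 for Slc39a3 and -0.28 for Slc39a5. Whether position bears on the values of any of these genes was not tested.

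**Figure D3:**
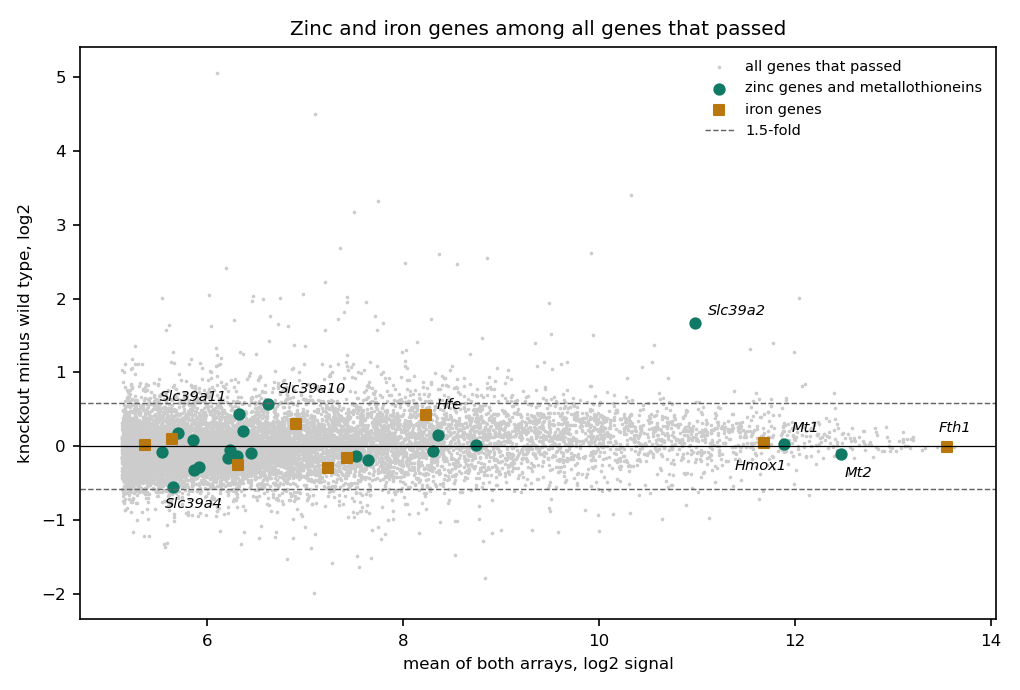
Difference, knockout minus wild type in log2 units (vertical axis), against the mean log2 signal of both arrays for the 12516 genes that passed, with zinc genes as green circles, iron genes as orange squares and 1.5-fold dashed. Slc39a2 lies above the band of genes of similar signal, while Mt1, Mt2, Hmox1 and Fth1 lie near 0.

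Further genes of metal handling, not part of the set, were described in 5 lists. Their counts are to be read beside those of all genes that passed, of which 48.9% read higher and 49.6% lower, with 4.45% past 1.5-fold upward and 2.66% downward. In the list of other iron genes, 10 of 23 measured passed, none reached 1.5-fold either way, and the median was -0.20. Its largest differences were in Lcn2 (0.51) and Ltf (0.45), siderophore-binding and iron-binding proteins of neutrophil granules. These were followed by the hypoxia factor gene Epas1 (0.39) and the mitochondrial iron importer gene Slc25a37 (-0.38). Lcn2 read 7.37 on the array labelled knockout and 6.87 on the array labelled wild type. Both granule genes belong to the neutrophil markers given above.

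Haem genes had a median of 0.17 over 16 that passed, with 10 higher, 6 lower and none past 1.5-fold. Urod, an enzyme of haem synthesis, read 10.01 on the array labelled knockout and 9.47 on the array labelled wild type. The constitutive haem oxygenase gene Hmox2 read 9.76 (labelled knockout) and 9.31 (labelled wild type), Uros, also of haem synthesis, 6.89 (labelled knockout) and 6.48 (labelled wild type), and Ppox, of the same pathway, 7.31 (labelled knockout) and 7.68 (labelled wild type). Enzymes of 1 pathway thus read in both directions.

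Iron-sulfur cluster assembly genes read mostly higher, 14 of the 16 measured with 2 past 1.5-fold, beside 48.9% and 4.45% of all genes. Their median was 0.18 as deposited and 0.13 with the arrays loess-centred. Hscb, the co-chaperone that passes clusters on, read 9.74 on the array labelled knockout and 8.97 on the array labelled wild type, 1.70-fold higher. Bola3, a mitochondrial cluster-transfer factor, read 7.10 (labelled knockout) and 6.39 (labelled wild type), 1.63-fold higher, and the scaffold gene Iscu read 9.13 (labelled knockout) and 8.64 (labelled wild type). Glrx3, a cytosolic glutaredoxin, differed by 0.44, and Mms19, of cytosolic cluster delivery, was the most negative at -0.35.

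Of 8 other zinc genes that passed, 6 read higher, 2 of them past 1.5-fold, beside 48.9% and 4.45% of all genes, with a median of 0.23. Cbwd1, of a family of zinc-transfer GTPases, read 7.73 on the array labelled knockout and 6.96 on the array labelled wild type, 1.71-fold higher. S100a8, a zinc-chelating calprotectin subunit of neutrophils, read 12.08 (labelled knockout) and 11.44 (labelled wild type), 1.55-fold higher, and belongs to the neutrophil markers. Car4 and Car2, zinc-dependent carbonic anhydrases, differed by 0.42 and 0.25, with Car2 below background on the array labelled wild type. Mcoln1, which encodes TRPML1, read 8.68 (labelled knockout) and 8.55 (labelled wild type).

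Copper and manganese genes had a median of 0.23 over 12 that passed, with 9 higher and 2 past 1.5-fold, beside 48.9% and 4.45% of all genes. With the arrays loess-centred the median was 0.13. Those 2 were the copper transporter genes of the Slc31 family. Slc31a2, which encodes the endolysosomal copper transporter CTR2, read 9.48 on the array labelled knockout and 8.42 on the array labelled wild type, 2.08-fold higher. Slc31a1, which encodes the plasma membrane importer CTR1, read 8.11 (labelled knockout) and 7.42 (labelled wild type), 1.61-fold higher. Cox17, a copper chaperone of mitochondria, differed by 0.32 and Sod2, the manganese superoxide dismutase gene, by 0.30.

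**Figure D4:**
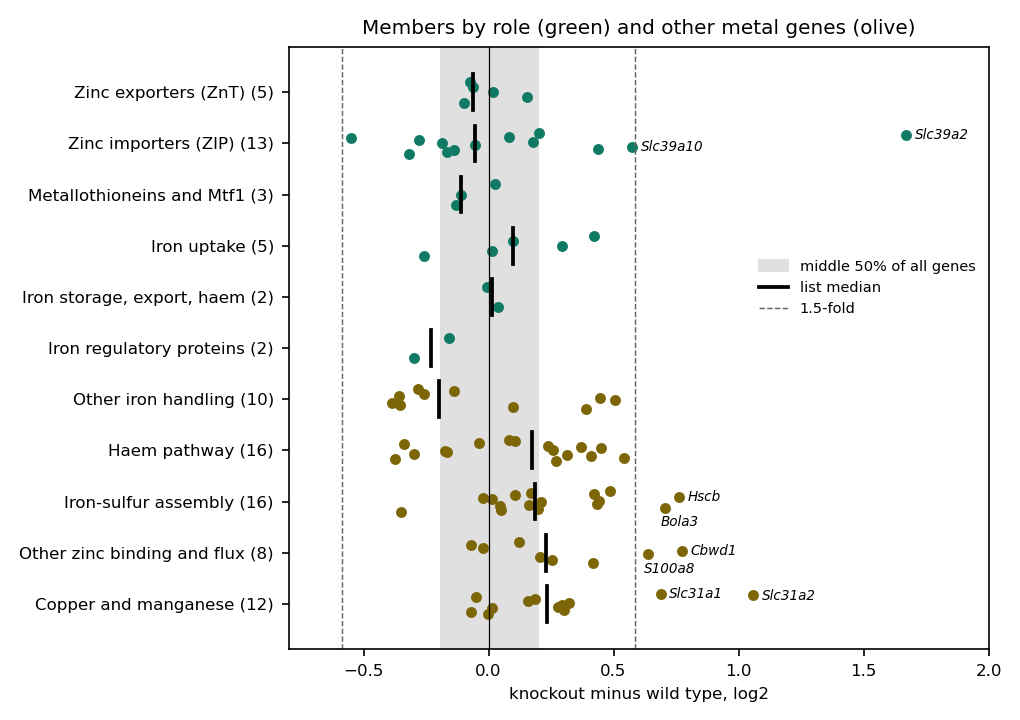
Difference of each gene that passed, knockout minus wild type in log2 units (horizontal axis), by role for the set (green) and for the 5 further lists (olive), with the number of genes in brackets, list medians as black bars, the middle 50% of all genes in grey and 1.5-fold dashed. Slc39a2 at 1.67 and Slc31a2 at 1.06 lie farthest to the right.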

How the data were processed

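Gene expression was measured on 2 arrays, 1 per genotype. The authors deposited log2 values processed with RMA, per the submitters' processing notes; no version, probe annotation or build is stated, and the log2 scale is taken from the method and the value range. RMA is meant to bring arrays to one distribution, so a shift of all genes may not show. The medians of the deposited arrays still differed somewhat, at 5.10 (labelled knockout) and 5.17 (labelled wild type). Of 41345 rows, 23521 have a single symbol in the platform's annotation, 1814 several and 16010 are unlisted; rows of a gene were averaged. All 37 symbols matched RefSeq (GRCm38.p6) through Entrez identifiers.

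Differences, folds, list medians and local spreads (20 bins of signal) were computed in Python 3.11.15 with pandas 2.3.3, and loess with statsmodels 0.14.6. No test was run; the number of arrays limits the precision. Alternatives were other filters, centring, normalisation, an offset, another choice of row and other thresholds. The calling code was run on simulated data with shifts set past the threshold and noise held below it. That checks the code and says nothing about the calls in these data. Members and lists were chosen with earlier results of these data known. Every member was named by rule, with values if above background, plus up to 4 genes per further list with the largest difference. Others (Mcoln1, Mms19, neighbours of Pikfyve and Lyz2, markers) were named after their values were seen. Ear1, Ear2 and other listed genes whose listed symbol had no row of its own were not analysed here. Rows under another name of such a gene were not searched for.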

Additional observations from a re-analysis of the deposited data

How the results depend on the processing

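Slc39a2 stayed past 1.5-fold under every alternative tried, with a difference between 1.55 (loess centring) and 1.74 (median centring). Slc39a10 sits at the threshold. It reached 0.64 under median centring, 0.60 under quantile normalisation and 0.59 under loess centring, which makes 2 genes at least 1.5-fold higher in each, and 0.43 with an offset of 32. A looser fold threshold gave 4 higher (Slc39a2, Slc39a10, Slc39a11 and Hfe) and 1 lower gene (Slc39a4), where 14.6% and 12.9% of all genes were called. The count of lower genes was 0 under the other alternatives. Loess centring of the further lists, added after the values were seen, gave medians of -0.28 for other iron genes (-0.20 as deposited), 0.13 for haem genes (0.17), 0.13 for iron-sulfur genes (0.18), 0.20 for other zinc genes (0.23) and 0.13 for copper and manganese genes (0.23). The median difference of the set lay between -0.08 and 0.04. Median centring moved the calls over all genes to 5.87% higher and 1.75% lower. The sign turned only for genes within 0.07 of 0: Slc30a5, Slc39a9 and Fth1 under median centring, Slc30a6, Mt1, Fth1 and Hmox1 under quantile normalisation, and Slc30a6, Mt1 and Hmox1 under loess centring. No paired analysis was possible because each genotype has 1 array. Signal near background limits Slc30a3, Slc39a3, Slc39a4, Slc39a5, Slc39a6, Slc39a14, Slc11a1 and Steap3.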

Other observations

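Set beside other solute carriers, some metal transporters stood among the largest positive differences. Of 213 Slc genes that passed the filter, Slc39a2 had the largest positive difference, and Slc31a2, Slc31a1 and Slc39a10 were also among the top 6, so 4 of the top 6 were carriers of zinc or copper. The families Slc11, Slc30, Slc31, Slc39 and Slc40 made up 22 (10.3%) of the 213. The other two were Slc7a11, the cystine transporter gene, which read 6.99 on the array labelled knockout and 5.74 on the array labelled wild type, and the peptide transporter gene Slc15a2, which read 7.20 (labelled knockout) and 6.19 (labelled wild type). This ranking was made after the values were seen and has no test. The cut at 6 falls on Slc39a10 itself. The mitochondrial iron importer gene Slc25a37, which read lower (-0.38), is not in the families counted. The 2 shares therefore do not show that metal carriers as a group read higher.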
